A study of Mus musculus with 17 samples.

Results

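The genes used to recognise tissue-resident macrophages were followed through mouse colon samples labelled as macrophages: Adgre1, Csf1r, Cx3cr1, Mrc1, Mertk, Cd68, Lyz2, Msr1 and Itgax. They were chosen by symbol, through the NCBI gene numbers of the deposited count tables, and all 9 of 9 were found among the 27179 genes. The 17 libraries came from C57BL/6(h-2b) mice aged 8 weeks that were either deficient in MCJ or wild type, in 3 conditions. MCJ, the protein of the gene Dnajc15, sits in the mitochondrial inner membrane and slows complex I of the respiratory chain.

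Macrophages of the gut wall survive on signals through the receptor Csf1r and are refilled from blood monocytes, which gain the other markers of the list as they settle. In the colon they take up dead cells and bacteria and are known to keep the response to microbes in check. Adgre1 encodes the adhesion receptor F4/80, Cx3cr1 the receptor for fractalkine, Itgax the integrin chain CD11c, Mrc1 the mannose receptor and Msr1 a scavenger receptor. Mertk is a receptor kinase for dead cells, Cd68 a glycoprotein of late endosomes and lysosomes, and Lyz2 a lysozyme that cleaves bacterial cell walls.

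The groups were MCJ-deficient (2 libraries) and wild-type mice (3) with no treatment named, called NN; MCJ-deficient (3) and wild-type mice (3) given DSS for 6 days, called NP; and MCJ-deficient (3) and wild-type mice (3) given a broad-spectrum antibiotic for 7 days and then DSS for 6 days, called PP. DSS is a polymer that injures the colon epithelium. Each library has a library number of its own and a mouse number. Mouse numbers 1 and 2 recur in MCJ-deficient NN, wild-type NN and MCJ-deficient NP, and the labels do not say that a shared number is the same animal. Mice of different genotype cannot be the same animal, whatever their number. The p-values measure the spread between these mice within this experiment. Cells were freed from the colon with collagenase IV, the labels name no sorting step, and the cell types in which MCJ is missing are not given there. No group had an antibiotic without DSS.

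Libraries held 29194744 to 37083344 counts, of which 23.1 to 50.4% were mitochondrial transcripts. Dnajc15 had 21 to 121 counts in the 8 MCJ-deficient libraries and 359 to 1534 counts in the 9 wild-type libraries, so the genotype labels fit the deleted gene. The cell type label was held against its markers in the same way. In untreated mice the 9 genes together made up 22.5 and 26.2 CPM (counts scaled by library size and the TMM factors of all 17 libraries) in MCJ-deficient libraries and 9.63 to 23.6 CPM in wild-type libraries. In the same libraries 12 colonocyte genes, among them Epcam, Krt8 and Car1, made up 20996 and 26300 CPM in MCJ-deficient mice and 27990 to 29280 CPM in wild-type mice. Wild-type NN libraries had 12383, 10075 and 13000 genes with 10 or more counts, against 13567 and 13571 genes in MCJ-deficient NN libraries. Their TMM factors were 0.837, 0.699 and 0.771, against 1.27 and 1.16 in MCJ-deficient NN libraries. With total counts as library size, the median log2 fold change of all genes, MCJ-deficient over wild type in NN, was 0.79. It was 0.08 with TMM, and the values of Mrc1, Cd68 and Lyz2 changed sign between these scalings. How far the lower numbers of genes bear on the NN values was not tested. In wild-type NN libraries Adgre1 had 0 to 2 counts and Itgax 0 counts in all 3. The NN libraries therefore held little RNA of these 9 genes. A list of 20 other tissue macrophage genes summed to 245 and 263 CPM in MCJ-deficient NN libraries and 254 to 302 CPM in wild-type NN libraries, with Cd163, Timd4 and Siglec1 at 0 in both. Colonocyte genes stayed above the 9 genes in sum in every NP and PP library too (10294 to 22143 CPM). In such bulk samples fewer macrophages and less RNA per macrophage cannot be told apart.

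Under DSS the 9 genes summed to 621 ± 361 CPM in MCJ-deficient mice and 72.9 ± 15.1 CPM in wild-type mice (SD, n = 3 each). After antibiotic and DSS the sums were 1688 ± 249 CPM in MCJ-deficient mice and 2133 ± 1562 CPM in wild-type mice (SD, n = 3 each). Among the wild-type PP libraries, replicate 11 stood apart with 329.8 CPM, against 3074 and 2996 CPM in replicates 10 and 12. Its colonocyte sum was 15999 CPM, against 10531 and 10816 CPM there. The comparisons that use it are given with and without it where it changes them.

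**Figure D1:**
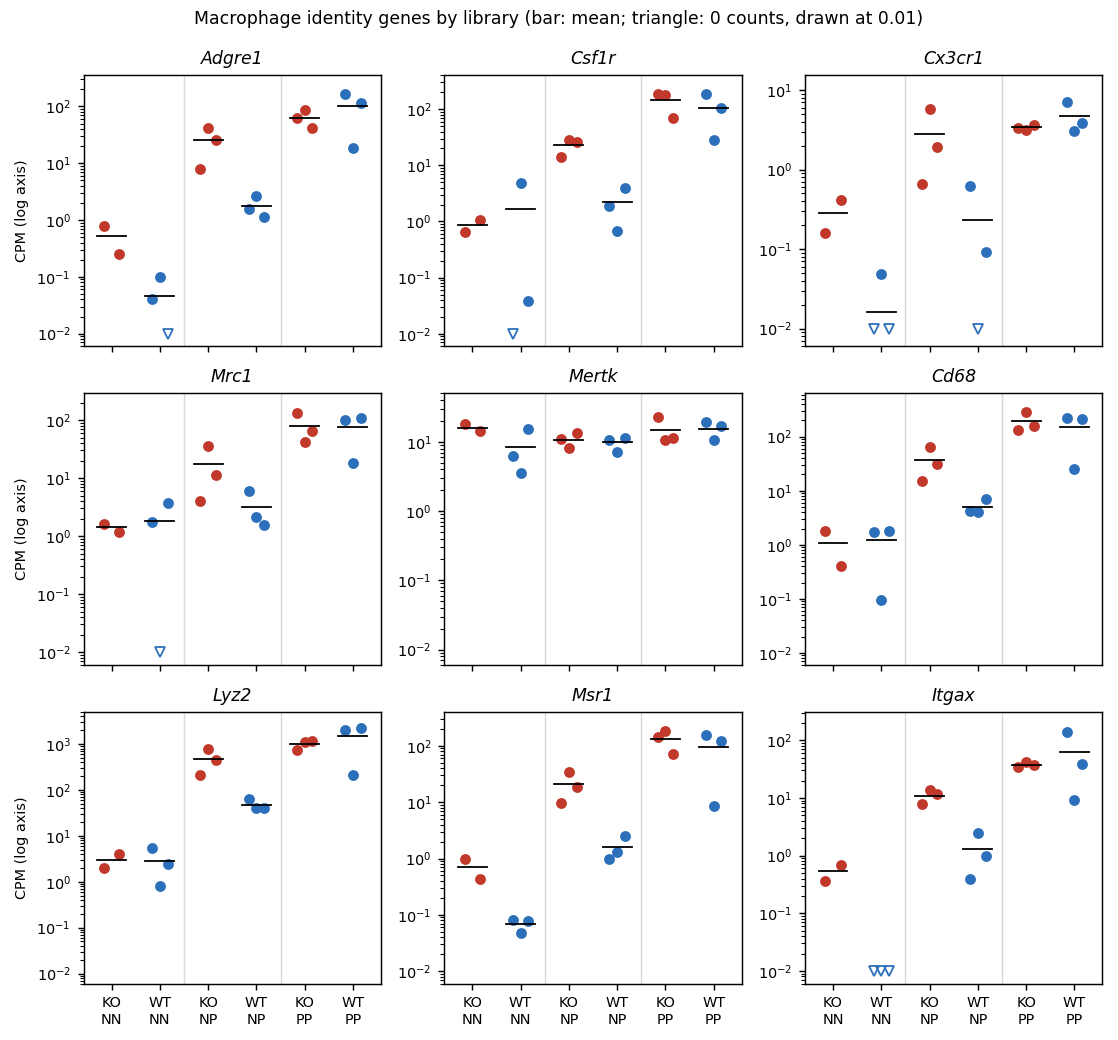
CPM of each of the 9 genes in each library on a log axis, with MCJ-deficient (KO, red) left of wild type (WT, blue) in NN, NP and PP; bars are group means and triangles are libraries with 0 counts, drawn at 0.01. Mertk lies between 3.6 and 22.8 CPM in all 17 libraries, while the other genes span orders of magnitude.

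The genes can be read by what they do. Adgre1 and Itgax encode surface molecules for which macrophages and dendritic cells are often stained. Adgre1 had 0.789 and 0.257 CPM in MCJ-deficient NN libraries and 0.0409, 0.0973 and 0 CPM in wild-type NN libraries. It had 7.79, 42 and 25.8 CPM in MCJ-deficient NP libraries, against 1.55, 2.61 and 1.14 CPM in wild-type NP libraries. It had 63.1, 85.3 and 42.4 CPM in MCJ-deficient PP libraries, against 166, 18.3 and 117 CPM in wild-type PP libraries. MCJ-deficient and wild-type values did not overlap in NN and NP and overlapped in PP.

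Itgax, which dendritic cells and some other leukocytes also carry, followed the same steps. It had 0.368 and 0.694 CPM in MCJ-deficient NN libraries and 0 counts in wild-type NN libraries. Under DSS it had 7.77, 13.6 and 11.6 CPM in MCJ-deficient libraries, against 0.387, 2.48 and 0.981 CPM in wild-type libraries. In PP it had 34, 42.4 and 37.4 CPM in MCJ-deficient libraries, against 140, 9.29 and 39.5 CPM in wild-type libraries, where the 3 mice were far apart. Of the other integrin chains, Itgam, which encodes CD11b of monocytes, neutrophils and macrophages, had 19.8, 31.2 and 23.2 CPM in MCJ-deficient NP libraries, against 3.8, 4.45 and 7.83 CPM in wild-type NP libraries.

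Csf1r, the receptor for the survival factors CSF1 and IL-34, had 14.3, 28 and 26.1 CPM in MCJ-deficient NP libraries, against 1.9, 0.685 and 3.97 CPM in wild-type NP libraries. In PP it had 189, 182 and 70.9 CPM in MCJ-deficient libraries, against 187, 28.2 and 106 CPM in wild-type libraries. In NN it had 25 and 41 counts in MCJ-deficient libraries, against 0, 101 and 1 counts in wild-type libraries. The 101 counts of wild-type NN replicate 2 stand out, because that library had 2 counts of Adgre1 and 2 of Cd68. An exon of Csf1r shares 873 bases with Hmgxb3 on the other strand. The strand setting of the counting is not given, so reads of the shared bases cannot be told apart. Hmgxb3 had 139 counts in wild-type NN replicate 2. It had 45 and 307 counts in wild-type NN replicates 1 and 3, where Csf1r had 0 and 1. In MCJ-deficient NN replicates 13 and 14 Hmgxb3 had 349 and 480 counts, and Csf1r had 25 and 41. Where the 101 counts came from was not tested.

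Per kilobase of exon, Cx3cr1 had the lowest mean of the 9 genes in every group but wild-type NN, where Itgax had 0 counts. It had 0.649, 5.82 and 1.94 CPM in MCJ-deficient NP libraries, against 0.613, 0 and 0.0913 CPM in wild-type NP libraries. In PP it had 3.31, 3.17 and 3.69 CPM in MCJ-deficient libraries, against 7.13, 3.04 and 3.9 CPM in wild-type libraries. Its counts never passed 215 in a library, and 78 bases of its exons lie opposite the antisense gene Gm33858.

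The receptors of uptake did not move as a block. Mrc1 had 4.1, 36.3 and 11.1 CPM in MCJ-deficient NP libraries, against 5.93, 2.16 and 1.53 CPM in wild-type NP libraries, and these ranges overlapped. Msr1 had 9.65, 34.7 and 18.7 CPM in MCJ-deficient NP libraries, against 0.999, 1.32 and 2.53 CPM in wild-type NP libraries, with no overlap. Mertk had 10.9, 8.14 and 13.3 CPM in MCJ-deficient NP libraries, against 10.8, 7.14 and 11.5 CPM in wild-type NP libraries. In the other groups Mertk was at 14.1 to 17.9 CPM in MCJ-deficient and 3.6 to 15.6 CPM in wild-type NN libraries, and at 10.5 to 22.8 CPM in MCJ-deficient and 10.6 to 19.4 CPM in wild-type PP libraries. In proportion to its level, no other of the 9 genes kept within so narrow a range over the 17 libraries. In PP, Mrc1 had 132, 41.8 and 65.8 CPM in MCJ-deficient libraries, against 102, 17.9 and 110 CPM in wild-type libraries, and Msr1 had 145, 182 and 72 CPM in MCJ-deficient libraries, against 157, 8.51 and 120 CPM in wild-type libraries. Marco, another scavenger receptor, was at 0 in all 5 NN libraries and at most 0.58 CPM in NP, and had 25.5, 9.81 and 1.43 CPM in MCJ-deficient PP libraries, against 0.862, 0 and 0 CPM in wild-type PP libraries.

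Cd68 and Lyz2 encode products of lysosomes and granules, and Lyz2 had the largest count of the 9 genes in each NP and PP library. Cd68 had 15.4, 65.6 and 31.2 CPM in MCJ-deficient NP libraries, against 4.19, 4.11 and 6.98 CPM in wild-type NP libraries. Lyz2 had 213, 768 and 439 CPM in MCJ-deficient NP libraries, against 63.4, 40.1 and 39.7 CPM in wild-type NP libraries. Neither gene overlapped between genotypes under DSS. In PP, Cd68 had 134, 288 and 154 CPM in MCJ-deficient libraries, against 223, 25.6 and 210 CPM in wild-type libraries, and Lyz2 had 760, 1131 and 1159 CPM in MCJ-deficient libraries, against 2072, 208 and 2273 CPM in wild-type libraries.

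Lyz2 has a close neighbour on chromosome 10, Lyz1, the lysozyme of Paneth cells in the small intestine, and reads can be shared between them. The first 90 coding bases of each, from GENCODE gene models on GRCm38, show how little separates them. Capitals mark the 7 bases that differ.
Lyz2: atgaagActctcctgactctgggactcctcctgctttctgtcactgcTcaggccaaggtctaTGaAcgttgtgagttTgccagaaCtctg
Lyz1: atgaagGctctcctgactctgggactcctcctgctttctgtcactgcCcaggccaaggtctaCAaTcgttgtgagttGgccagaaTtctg
Over all 444 coding bases 22 differed (95.05% identity), and 15.39% of the windows of 50 bases in the Lyz2 transcript also occur in the Lyz1 transcript. Lyz1 had 1799, 4238 and 2690 counts in MCJ-deficient NP libraries, against 242, 282 and 206 counts in wild-type NP libraries. In the 12 NP and PP libraries Lyz1 had a median of 0.174 counts per Lyz2 count, and the ratio stayed between 0.118 and 0.185. How the counting program divided shared reads is not given, so the division between both lysozymes is uncertain; summing them changed no call of Lyz2 in any comparison, though its sign in NN turned.

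**Figure D2:**
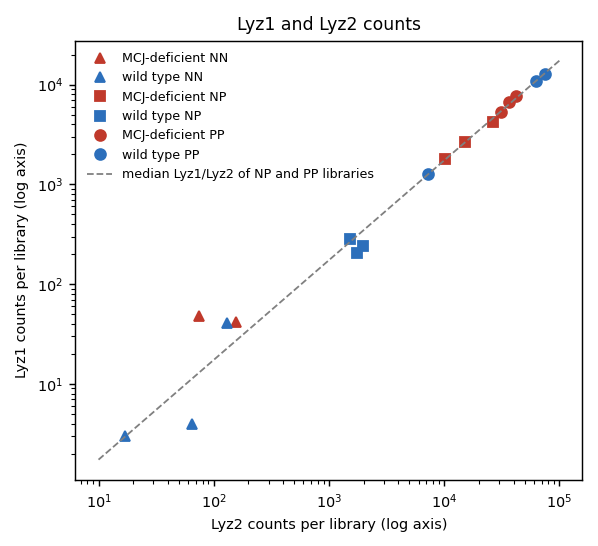
Counts of Lyz1 against counts of Lyz2 in each library, both on log axes; red is MCJ-deficient, blue wild type, and the dashed line is the median ratio of the NP and PP libraries, 0.174. The NP and PP points follow the line over the whole range of Lyz2, and the NN points, at 3 to 48 counts of Lyz1, scatter around it.

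The first comparison asked what loss of MCJ does under DSS. Of the 9 genes, 6 were higher in MCJ-deficient NP libraries than in wild-type NP libraries, by 7.33-fold for Cd68 to 14.3-fold for Adgre1: Adgre1, Csf1r, Cd68, Lyz2, Msr1 and Itgax. Of all 14452 genes tested, 0.983% were called higher. Here and below, genes were tested with edgeR (quasi-likelihood) and p-values adjusted over all genes tested by Benjamini and Hochberg's method (edgeR adjusted p), and a gene is called at an adjusted p under 0.05. The median log2 fold change of the 9 genes was 3.31, beside 0.03 for all genes tested.

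The log2 fold change of Lyz2 was 3.31 (SE 0.418, edgeR adjusted p = 0.00396), and that of Msr1 was 3.69 (SE 0.518, edgeR adjusted p = 0.00778). Adgre1 followed at 3.83 (SE 0.571, edgeR adjusted p = 0.0109) and Csf1r at 3.38 (SE 0.543, edgeR adjusted p = 0.0136). Cd68 had 2.87 (SE 0.474, edgeR adjusted p = 0.0159) and Itgax 3.09 (SE 0.579, edgeR adjusted p = 0.0282). The 6 values span less than 1 log2 unit, with standard errors of 0.418 to 0.579. Cx3cr1 had a like value with a wide error and was not called (3.6, SE 1.253, edgeR adjusted p = 0.346), and neither was Mrc1 (2.43, SE 0.72, edgeR adjusted p = 0.221). Mertk was at 0.14 (SE 0.318, edgeR adjusted p = 0.958). Of the 9 genes, 7 had every MCJ-deficient library above every wild-type library, as did 9.8% of the genes tested, and the exceptions were Mrc1 and Mertk.

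These calls hung on single libraries. Without wild-type replicate 7 only Lyz2 was called and without wild-type replicate 8 only Itgax; without MCJ-deficient replicate 20 there were 3 calls, and without MCJ-deficient replicate 19 there were 7, Mrc1 included. In the fit of all 17 libraries none of the 9 was called (edgeR adjusted p = 0.211 for Adgre1, Lyz2 and Msr1) and 1 gene of all was, while the log2 fold changes stayed at 3.83 for Adgre1, 3.31 for Lyz2 and 3.69 for Msr1.

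**Figure D3:**
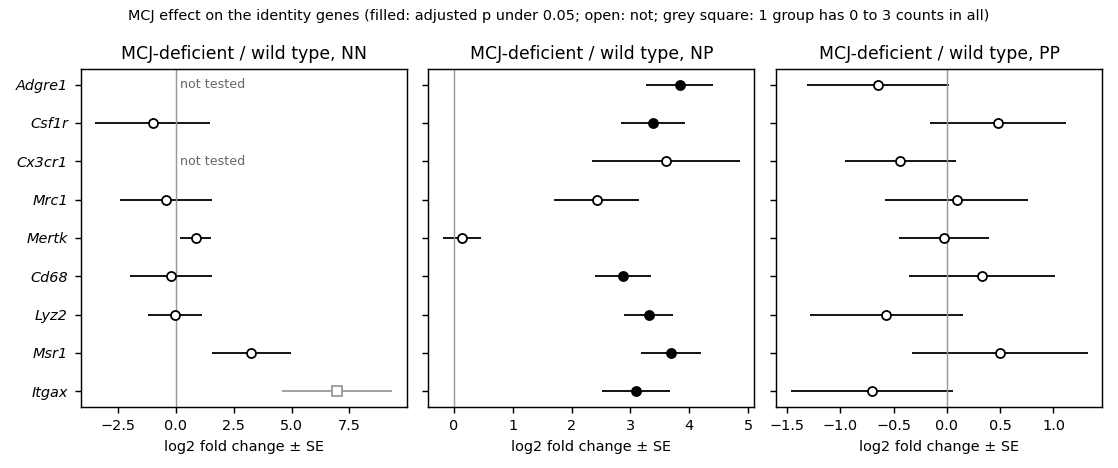
Log2 fold change of each gene, MCJ-deficient over wild type, with its standard error, in NN, NP and PP (each panel has its own axis). Filled points have an edgeR adjusted p under 0.05, and the grey square marks Itgax in NN, whose wild-type libraries have 0 counts. In NP 8 of the 9 values lie between 2.43 and 3.83 and Mertk lies at 0.14; in PP the values lie on both sides of 0.

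Genes around the 9 in the same comparison tell how far this reached. Of 20 other tissue macrophage genes, 18 were tested and 5 were higher in MCJ-deficient NP libraries, with Aif1, a calcium-binding protein of macrophages (log2 fold change 3.15), Fcgr1, a high-affinity receptor for IgG (3.26), and Apoe, a lipid carrier (3.00), leading by p. Of 9 transcription factors of macrophages only Zeb2 was called (3.22). Of 11 relatives of the 9 genes 4 were higher, among them Lyz1 (3.58), Itgam (2.2) and Adgre5 (1.68). None of the 5 ligands Csf1, Il34, Cx3cl1, Gas6 and Pros1 was called. The ligands summed to 107 to 124 CPM in MCJ-deficient NP libraries, against 92.3 to 184 CPM in wild-type NP libraries.

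Markers of other leukocytes were set beside them. Of 8 monocyte genes 5 were called higher in MCJ-deficient NP libraries, among them Ccr2 (log2 fold change 4.25), Vcan (2.53) and Chil3 (4.01), although the summed list overlapped at 739 to 1350 CPM in MCJ-deficient libraries, against 980 to 1733 CPM in wild-type libraries. Of 5 eosinophil genes 4 were tested and Ccr3 was called (4.14); the sum was 6.66 to 30.3 CPM in MCJ-deficient libraries, against 0.73 to 3.43 CPM in wild-type libraries, with Epx at 0 in both. None of 9 neutrophil genes tested was called, with sums of 253 to 546 CPM in MCJ-deficient libraries and 395 to 668 CPM in wild-type libraries and Elane at 0 in both. None of 6 dendritic cell genes tested was called, with sums of 6.7 to 18.7 CPM in MCJ-deficient libraries and 3.93 to 5.09 CPM in wild-type libraries. None of 3 B and plasma cell genes tested was called, although 2 had an unadjusted p under 0.05; the sum of that list was 13.8 to 210.7 CPM in MCJ-deficient libraries, against 2.64 to 6.55 CPM in wild-type libraries, with no overlap. None of 12 colonocyte genes was called. The part of these cells in the result was not tested.

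In untreated mice none of the 9 genes passed the test for loss of MCJ. Of the 9 genes, 7 were tested and 0 were called, as were 0% of the 13559 genes tested; 1124 genes had an unadjusted p under 0.05, and DESeq2 called 296, with none of the 9 among them; of the 7 tested, Itgax alone had an unadjusted p under 0.05. Dnajc15 itself, at a log2 fold change of -3.76 (SE 0.554), had an edgeR adjusted p of 0.326 with 2 libraries against 3. Msr1 and Itgax had both MCJ-deficient libraries above all wild-type libraries, as did 20.4% of the genes tested. They passed the low-count filter only through their MCJ-deficient counts. Adgre1 and Cx3cr1 also had both MCJ-deficient libraries above, but they did not pass the filter and lie outside that share. Adgre1 had 40 counts in MCJ-deficient and 3 in wild-type libraries, a ratio of 12.3 with a 95% counting interval of 3.93 to 62.3. Cx3cr1 had 22 counts in MCJ-deficient and 1 in wild-type libraries, a ratio of 20.4 (3.29 to 840). Itgax had 41 counts in MCJ-deficient libraries and 0 in wild-type libraries, at least 12.6-fold higher, with the empty wild-type group set to 3 counts in all. Msr1 had 55 counts in MCJ-deficient and 5 in wild-type libraries and a log2 fold change of 3.26 (SE 1.705, edgeR adjusted p = 0.718). Intervals and floors cover counting error only. Mertk carried much of what the NN libraries held of the 9 genes, with 682 and 548 counts in MCJ-deficient libraries and 151, 74 and 407 counts in wild-type libraries, and its log2 fold change was 0.87 (SE 0.67).

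After antibiotic and DSS, the groups of both genotypes overlapped in all 9 genes, while 5.53% of the genes tested had every MCJ-deficient library higher and 6.21% had every one lower. None was called, nor was any of the 14556 genes tested (0%; 758 had an unadjusted p under 0.05, none of the 9 among them, and DESeq2 called 87, again none of the 9). Dnajc15 itself missed the threshold there at a log2 fold change of -4.15 (SE 0.757, edgeR adjusted p = 0.791), so this comparison could not show even that change by the rule. The 9 log2 fold changes ran from -0.70 for Itgax to 0.49 for Msr1 with standard errors of 0.421 to 0.826, and their median was -0.03. Without the wild-type replicate 11 they ran from -1.21 for Itgax to 0.03 for Csf1r, again with 0 calls, and the signs of Mrc1, Cd68 and Msr1 turned.

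Whether the effect of MCJ differed between conditions was tested as a difference of log2 fold changes in the fit of all 17 libraries. None of the 9 genes passed for NP against NN, PP against NN or PP against NP, where 0%, 0.0531% and 0% of 16958 genes were called. At an unadjusted p under 0.05 there were 3, 3 and 6 of the 9 in that order, beside 950, 1400 and 886 of the 16958 genes. DESeq2 called 0, 1 and 2 of the 9, beside 141, 156 and 81 genes of all. For PP against NP the lowest p-values were those of Adgre1, at a difference of -4.49 (SE 0.96, edgeR adjusted p = 0.19), and Lyz2, at -3.89 (SE 0.969, edgeR adjusted p = 0.348). Without wild-type PP replicate 11, Adgre1 (-4.99, edgeR adjusted p = 0.016), Lyz2 (-4.41, edgeR adjusted p = 0.0285) and Msr1 (-3.74, edgeR adjusted p = 0.0358) passed. Averaged over the conditions, the effect of MCJ was above 0 for all 9 genes and passed for none (0% of genes were called higher). Of the 9, 6 had an unadjusted p under 0.05, beside 2324 of the 16958 genes. DESeq2 called 4 of the 9, beside 476 genes of all. Msr1 came nearest at 2.49 (SE 0.503, edgeR adjusted p = 0.0665). It passed without wild-type PP replicate 11 (2.31, edgeR adjusted p = 0.0209) or replicate 10 (2.68, edgeR adjusted p = 0.0386). Msr1 also passed without MCJ-deficient PP replicate 24 (2.585, edgeR adjusted p = 0.0415), and Itgax without wild-type PP replicate 10 (3.65, edgeR adjusted p = 0.0336).

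The second set of comparisons concerned the treatments. These effects came from 1 fit of all 17 libraries, and the comparisons that follow share groups with each other and with those above. In MCJ-deficient mice 5 of the 9 genes were higher under DSS than without treatment, beside 2.04% of 16958 genes: Adgre1, Cd68, Lyz2, Msr1 and Itgax. In wild-type mice 4 of the 9 were higher, beside 2.25% of genes: Adgre1, Lyz2, Msr1 and Itgax. Lyz2, the strongest in MCJ-deficient mice, averaged 473 ± 279 CPM in NP (SD, n = 3), against 1.95 and 3.99 CPM in NN, with a log2 fold change of 7.32 (SE 1.057, edgeR adjusted p = 0.00122). In wild-type mice Lyz2 averaged 47.7 ± 13.6 CPM in NP and 2.88 ± 2.27 CPM in NN (SD, n = 3 each), with a log2 fold change of 4.04 (SE 0.759, edgeR adjusted p = 0.00775).

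The other 4 called in MCJ-deficient mice had log2 fold changes of 5.58 for Adgre1, 5.10 for Cd68, 4.86 for Msr1 and 4.36 for Itgax. Of the 9 genes, 8 had every MCJ-deficient NP library above every MCJ-deficient NN library, as did 19% of the genes tested. Mertk was the exception, with every NP library below every NN library, as 17.1% of genes were, and a log2 fold change of -0.57 (SE 0.522, edgeR adjusted p = 0.908). With only 2 MCJ-deficient NN libraries these calls were fragile: without replicate 13 none of the 9 was called and without replicate 14 there was 1.

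In wild-type mice the NN counts set the size of the effect. Adgre1 had 197 counts in NP libraries and 3 in NN libraries, a ratio of 41.4 with a counting interval of 14 to 203. Itgax had 149 counts in NP and 0 in NN libraries and was at least 31.3-fold higher. Msr1 had 192 counts in NP and 5 in NN libraries and a log2 fold change of 4.47 (SE 1.053, edgeR adjusted p = 0.031). Cd68 did not pass (2.04, SE 0.812, edgeR adjusted p = 0.23), nor did Cx3cr1 with 23 counts in NP and 1 in NN libraries, a ratio of 14.5 (2.36 to 598), nor Mrc1 (0.81, SE 0.948). Csf1r was at 0.45 (SE 1.058, edgeR adjusted p = 0.893), a value that rests on wild-type NN replicate 2: without it Csf1r was at 6.57 (edgeR adjusted p = 0.0202). Without wild-type NN replicate 1, and in a fit of only the wild-type NP and NN groups, Lyz2 was the 1 gene called of the 9.

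**Figure D4:**
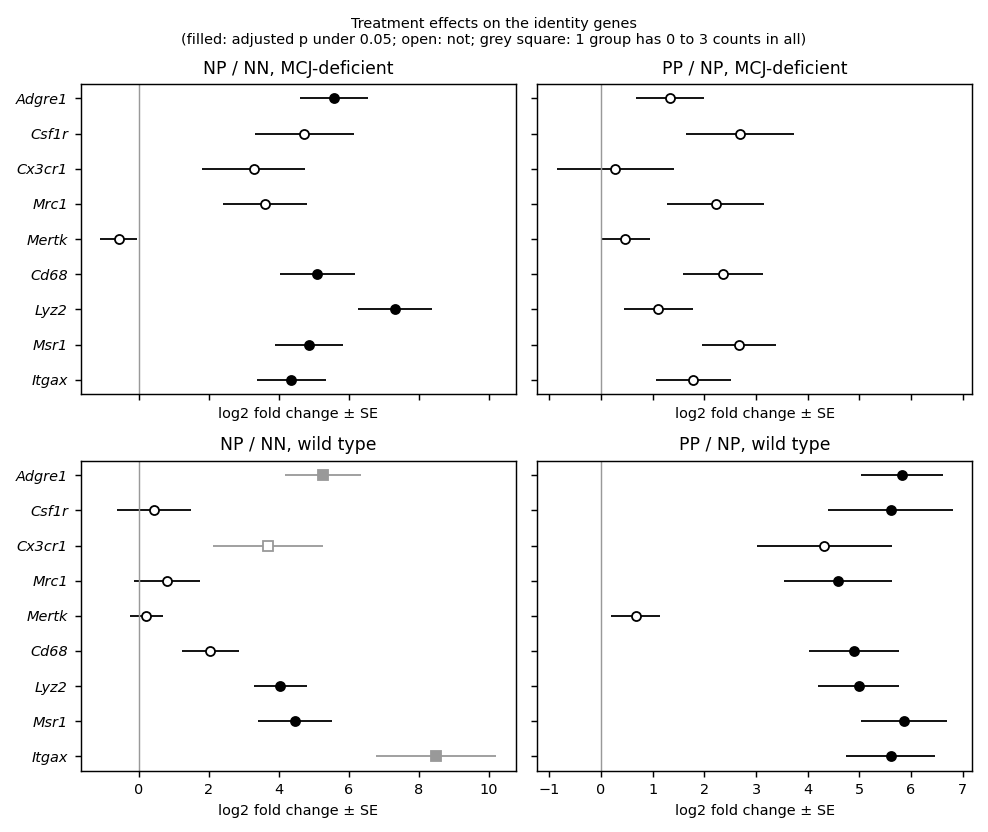
Log2 fold change of each gene with its standard error for NP over NN (left) and PP over NP (right), in MCJ-deficient mice (top) and wild-type mice (bottom), with an own axis for each column. Filled points have an edgeR adjusted p under 0.05, and grey squares are genes with 0 to 3 counts in the wild-type NN group. In all, 7 genes pass for PP over NP in wild-type mice and none in MCJ-deficient mice, and Mertk is near 0 in all 4 panels.

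Antibiotic before DSS was set against DSS alone. In MCJ-deficient mice none of the 9 genes was called, beside 1.34% of genes called higher. DESeq2 called 1, Msr1, beside 930 genes of all. All 9 values were above 0, between 0.28 for Cx3cr1 and 2.69 for Csf1r. Of the 9, 6 had every PP library above every NP library, as did 12.8% of genes. An unadjusted p under 0.05 was found for 5 of the 9, beside 2417 of 16958 genes. A fit of only these MCJ-deficient groups called 4 of the 9: Csf1r at 2.68, Cd68 at 2.34, Msr1 at 2.65 and Itgax at 1.78. That fit called 802 of all 14553 genes it tested. In wild-type mice 7 of the 9 genes were higher in PP than in NP, beside 3.49% of genes: Adgre1, Csf1r, Mrc1, Cd68, Lyz2, Msr1 and Itgax. Whether the response to the antibiotic differed between genotypes is the same difference as that of the MCJ effect between PP and NP, which none of the 9 passed.

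The values in wild-type mice were large. Msr1 averaged 95.2 ± 77.4 CPM in PP and 1.62 ± 0.809 CPM in NP (SD, n = 3 each), a log2 fold change of 5.87 (SE 0.837, edgeR adjusted p = 0.00122). Adgre1 averaged 100.3 ± 75.1 CPM in PP and 1.77 ± 0.758 CPM in NP (SD, n = 3 each), a log2 fold change of 5.83 (SE 0.797, edgeR adjusted p = 0.00122). The others called lay between 4.59 for Mrc1 and 5.61 for Itgax. Cx3cr1 had 4.33 (SE 1.304, edgeR adjusted p = 0.0713) and Mertk 0.67 (SE 0.474, edgeR adjusted p = 0.548). Of the 9 genes 8, all but Mertk, had every wild-type PP library above every wild-type NP library, replicate 11 included, as did 11.6% of the genes tested. Without replicate 11 the same 7 genes were called, at 5.06 to 6.41.

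Set against no treatment, 7 of the 9 genes were higher after antibiotic and DSS in MCJ-deficient mice (6.52% of genes were called higher) and 8 of the 9 in wild-type mice (12.8% were). In MCJ-deficient mice Lyz2 had a log2 fold change of 8.42 (SE 1.11, edgeR adjusted p = 0.000106), and the other 6 ran from 5.82 for Mrc1 to 7.53 for Msr1. Cx3cr1 did not pass there (3.56, SE 1.487, edgeR adjusted p = 0.151). In wild-type mice Lyz2 had 9.04 (SE 0.943, edgeR adjusted p = 7.97e-06) and Msr1 10.34 (SE 1.111, edgeR adjusted p = 1.02e-05). Adgre1 had 9500 counts in wild-type PP libraries and 3 in wild-type NN libraries, a ratio of 2304 with a counting interval of 788 to 11176, and Itgax, with 5861 counts in PP and 0 in NN libraries, was at least 1422-fold higher. Mertk was not called in either genotype, at -0.10 (SE 0.526) in MCJ-deficient and 0.88 (SE 0.477) in wild-type mice.

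The lists around the 9 genes moved in the same comparisons. For DSS against no treatment, 11 of 20 other tissue macrophage genes were higher in MCJ-deficient mice and 6 of 20 in wild-type mice, and the complement chain genes C1qb (log2 fold change 6.01 in MCJ-deficient mice) and C1qc (4.68 in wild-type mice) came first by p. For PP against NP, 1 of the 20 was higher in MCJ-deficient mice (Cd14, a co-receptor for bacterial lipopolysaccharide, at 2.87) and 9 in wild-type mice. Spi1, which encodes PU.1, the factor that myeloid cells depend on, had log2 fold changes for DSS of 5.07 in MCJ-deficient and 7.06 in wild-type mice and was called in both. Of the 5 ligands none was called for DSS alone or for the antibiotic under DSS. For antibiotic with DSS against no treatment, Csf1 was higher and Gas6 lower in each genotype. The log2 fold change of Csf1 was 5.23 in MCJ-deficient and 3.92 in wild-type mice, and that of Gas6, a ligand of Mertk, was -1.52 in MCJ-deficient and -1.14 in wild-type mice.

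Markers of other cells were set beside the treatment effects too. The 12 neutrophil genes summed to 253 to 546 CPM in MCJ-deficient NP libraries, against 25.3 and 30.8 CPM in MCJ-deficient NN libraries, and 7 of 10 tested genes were called higher, S100a8 and S100a9 first. In wild-type mice the sums were 395 to 668 CPM in NP and 25.6 to 65.4 CPM in NN, again with 7 of 10 called. In PP the sums were 1154 to 5310 CPM in MCJ-deficient libraries and 275 to 1374 CPM in wild-type libraries, where the lowest was replicate 11. For PP against NP, 4 of 10 neutrophil genes were called higher in MCJ-deficient mice and 1 of 10, Retnlg, in wild-type mice. Monocyte genes were called higher for DSS in 7 of 8 cases in MCJ-deficient mice and 5 of 8 in wild-type mice. For PP against NP in wild-type mice, where 7 of the 9 genes were called, 6 of 8 monocyte genes were called higher too, Ccr2 first (log2 fold change 6.39), with a list median of 3.9. In the same comparison 2 of 4 eosinophil genes tested were called, Ccr3 (6.65) and Siglecf (6.44), and the eosinophil sum was 8.08 to 237 CPM in wild-type PP libraries, against 0.73 to 3.43 CPM in wild-type NP libraries. Dendritic cell genes were called in 2 of 10 cases, Ccr7 (3.74) and Clec10a (4.51), and Jchain, a gene of plasma cells (6.54), was the 1 called of 7 B and plasma cell genes. The colonocyte sum was 10294 to 14671 CPM in MCJ-deficient PP libraries, against 17413 to 21412 CPM in MCJ-deficient NP libraries, and 10531 to 15999 CPM in wild-type PP libraries, against 15721 to 22143 CPM in wild-type NP libraries. Fibroblast genes summed to 84.7 to 209 CPM in MCJ-deficient NP libraries, against 5.86 and 8.23 CPM in NN, with 1 of 7 called (Dcn). Endothelium genes summed to 24.3 to 64.15 CPM there, against 4.63 and 6.04 CPM in NN, with 2 of 7 called. In wild-type mice none of either list was called for DSS. Fibroblast sums there were 120 to 313 CPM in NP and 10.7 to 182 CPM in NN. Endothelium sums there were 31.4 to 41.2 CPM in NP and 7.15 to 27.3 CPM in NN. The part of these cells in the results was not tested.

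The levels of the 9 genes were also set against each other within each group. Per kilobase of exon, a scale on which genes can be compared, Lyz2 led in MCJ-deficient PP libraries with 773 ± 169 CPM per kb, above Cd68 with 153 ± 66.6 (SD, n = 3 each). Csf1r with 25.5 ± 11.4, Msr1 with 21 ± 8.81, Adgre1 with 19.6 ± 6.63 and Mrc1 with 12.5 ± 7.31 CPM per kb came next, and neighbours among these 4 did not differ beyond their spread. Itgax with 7.89 ± 0.878, Mertk with 3.44 ± 1.59 and Cx3cr1 with 0.753 ± 0.0592 CPM per kb closed the order. In wild-type PP libraries Lyz2 and Cd68 also led, at 1153 ± 865 and 122 ± 87.9 CPM per kb, and the ranks from Adgre1 to Mrc1 lay within their spread. In NN, Mertk led in MCJ-deficient libraries with 3.69 ± 0.627 CPM per kb (n = 2), and in wild-type libraries Lyz2 with 2.19 ± 1.73 and Mertk with 1.95 ± 1.45 CPM per kb were not apart (n = 3).

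As a share of the summed CPM of the 9 genes, Mertk held 65.4% in MCJ-deficient and 48.1% in wild-type NN libraries on average. Its share was 2.31% in MCJ-deficient and 13.5% in wild-type NP libraries, and 0.926% in MCJ-deficient and 1.47% in wild-type PP libraries. Lyz2 held 12.6% in MCJ-deficient and 18.1% in wild-type NN libraries, and 60.2 to 75.9% on average in the 4 other groups. The share of Csf1r in wild-type NN libraries, 17.1 ± 29.4% (SD, n = 3), came from replicate 2.

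**Figure D5:**
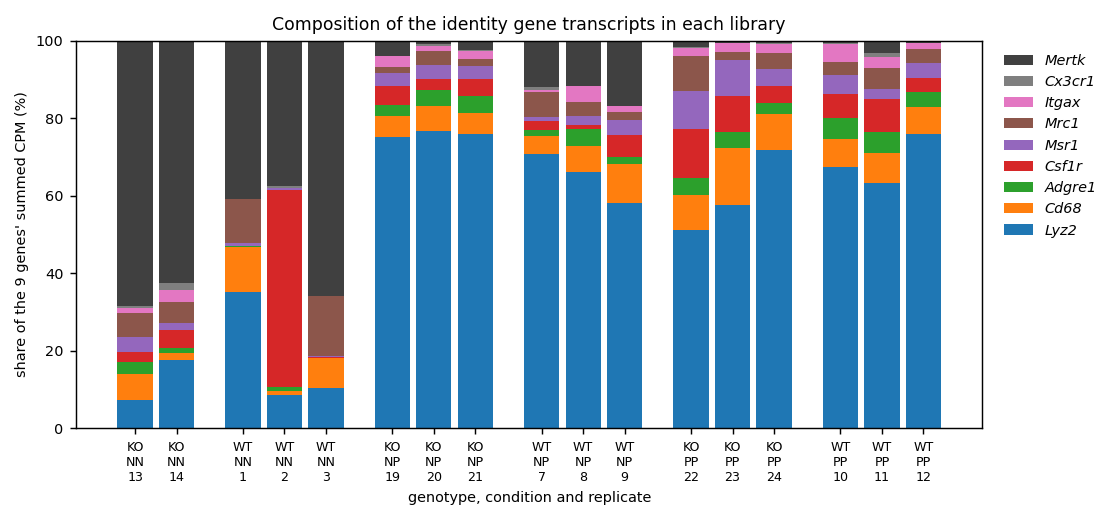
Share of each gene in the summed CPM of the 9 genes, in percent, for every library, with MCJ-deficient (KO) left of wild type (WT) in each condition. Mertk (dark, top) takes a mean of 65.4% in MCJ-deficient and 48.1% in wild-type NN libraries, and Lyz2 (blue, bottom) takes 60.2 to 75.9% on average in the NP and PP groups.

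Whether the genes moved by the same factor was tested with the log2 ratio of each gene's counts to those of Adgre1 in the same library, which needs no scaling (pseudocount 0.5). Libraries were permuted within genotype for the treatments and within condition for MCJ, and the 32 exact two-sided tests were adjusted by the Benjamini-Hochberg method. No ratio passed. With a pseudocount of 1, 4 did, those of Mertk and Cx3cr1 for DSS and for antibiotic with DSS. A single treatment ratio could not pass over 32 tests, even at the smallest p that these permutations can give. Mertk per Adgre1 had a mean log2 ratio of -0.95 in MCJ-deficient and 2.52 in wild-type NP libraries, against 5.10 in MCJ-deficient and 7.08 in wild-type NN libraries. The DSS difference, averaged over genotypes, was -5.30 (exact permutation p = 0.005, the smallest these permutations can give, adjusted p = 0.0533). For antibiotic with DSS against no treatment it was -8.26 (exact permutation p = 0.005, adjusted p = 0.0533). Cx3cr1 per Adgre1 differed by -2.98 for DSS (exact permutation p = 0.01, adjusted p = 0.08) and by -3.31 for antibiotic with DSS (exact permutation p = 0.005, adjusted p = 0.0533). In PP the means of Mertk per Adgre1 were -2.13 in MCJ-deficient and -2.23 in wild-type libraries, a difference from NP of -2.96 (exact permutation p = 0.015, adjusted p = 0.096). Every other ratio for PP against NP had an adjusted p of at least 0.343, with differences between -0.65 for Lyz2 and 0.60 for Csf1r. The ratios in NN rest on 0 to 2 counts of Adgre1 in wild-type and 10 and 30 counts in MCJ-deficient libraries.

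The promoters of 6 of the 9 genes were matched in RefSeq (GRCm38.p6): Cx3cr1, Mrc1, Mertk, Cd68, Lyz2 and Itgax. The 250 bases before the start were searched on both strands for GAGGAA, a core that PU.1 binds (TTCCTC on the other strand), and for TGACTCA, the AP-1 motif (TGAGTCA on the other strand); the motifs do not overlap. Mrc1 and Cd68, whose windows held the PU.1 core, are shown with Mertk, which was called in no comparison. Mrc1 and Cd68 were called for the antibiotic in wild-type mice, and so were Lyz2 and Itgax, which are not shown. The Lyz2 window held neither motif, and the Itgax window held 1 AP-1 match and no PU.1 core. The Cx3cr1 window held neither motif, and Cx3cr1 was not called there. A link between motif and response was not tested. Capitals mark the matches.
Cd68, chr11:69666171-69666420, minus strand: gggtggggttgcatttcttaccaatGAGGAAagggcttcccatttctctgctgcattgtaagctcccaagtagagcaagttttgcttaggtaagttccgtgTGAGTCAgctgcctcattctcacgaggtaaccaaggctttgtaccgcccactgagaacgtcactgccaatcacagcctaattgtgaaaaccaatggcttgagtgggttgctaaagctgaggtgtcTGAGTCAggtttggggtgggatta
Mrc1, chr2:14229164-14229413, plus strand: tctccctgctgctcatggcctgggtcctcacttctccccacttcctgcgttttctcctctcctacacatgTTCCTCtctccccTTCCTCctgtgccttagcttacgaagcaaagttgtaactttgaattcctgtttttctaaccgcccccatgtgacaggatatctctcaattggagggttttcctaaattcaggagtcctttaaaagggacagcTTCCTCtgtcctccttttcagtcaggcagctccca
Mertk, chr2:128698665-128698914, plus strand: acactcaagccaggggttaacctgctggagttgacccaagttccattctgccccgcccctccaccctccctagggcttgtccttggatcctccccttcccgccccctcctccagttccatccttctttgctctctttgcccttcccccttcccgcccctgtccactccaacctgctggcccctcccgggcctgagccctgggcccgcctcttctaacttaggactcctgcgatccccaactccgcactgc
The Cd68 window holds 1 match to the PU.1 core and 2 to the AP-1 motif, the Mrc1 window holds 3 to the PU.1 core, and the Mertk window holds neither. In all, 2 of the 6 windows held the PU.1 core, as did 23.25% of 32851 windows of that length, and 2 held the AP-1 motif (Cd68 and Itgax), as did 4.46%. A match says only that these letters are present.

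Genes that are no members but had the most similar course were sought by the root mean square difference between a gene's centred log2 CPM and the mean of the 9 genes over the 17 libraries. The 10 nearest of 15022 named genes were Treml4 (0.547), Evi2b (0.561), Dok2 (0.567), Rgs1 (0.595), Cd48 (0.61), Myo1g (0.645), Tmem154 (0.647), Rassf5 (0.656), Cd244a (0.666) and Emilin2 (0.671), in log2 units. Rgs1, a regulator of G protein signalling in leukocytes and the most abundant of them, averaged 62 CPM in MCJ-deficient and 8 CPM in wild-type NP libraries. Each of the 9 genes, set against the mean of the other 8, lay between 0.987 for Cd68 and 1.69 for Csf1r, except Mertk at 2.99; the median gene lay at 2.93 from the mean of the 9. The 17 points share the 6 groups, so this likeness describes the course over groups and scaling, with no test.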

How the data were processed

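The submitters' processing notes name CASAVA 1.8.2, FastQC, Trim Galore, STAR 2.5.4, DESeq2 and the build mm10; which program counted the reads, and with which annotation and strand setting, is not given in the sources used here. Raw counts per gene were deposited by the authors as 3 tables, 1 per condition (27179 NCBI gene numbers). Symbols came from RefSeq (25275) and GENCODE (17), and 1887 numbers stayed unnamed. From these counts, genes were filtered with filterByExpr, scaled with TMM and tested with edgeR 4.0.16 (R 4.3.3). The effect of MCJ was fitted within each table, and treatment effects and differences in 1 fit of 17 libraries. Alternatives were DESeq2 1.42.0, other scalings, no filter, another fit, the mouse number as a block, and leaving out each library. Ratios were tested with Python 3.11.15. No libraries were identical. All 9 genes are described, and of other lists at most the 3 called genes with the smallest p. The members and lists were chosen with earlier results of these data known. Low counts in NN limit the values there. Intervals and floors are at 95% and 3 counts.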

Additional observations from a re-analysis of the deposited data

How the results depend on the processing

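The number of the 9 genes called stayed within 1.5 times of the values above under most settings. It moved as follows. For MCJ in NP it was 0 in 1 fit of all 17 libraries and 1 to 7 with a library left out. For DSS in wild-type mice it was 1 with only the 2 groups compared and 1 to 4 with a library left out, and in MCJ-deficient mice 0 to 5. For the antibiotic under DSS in MCJ-deficient mice it was 1 with DESeq2 (930 genes of all), 2 without a low-count filter (558) and 4 with only the 2 groups compared (802). With a library left out it was 0 to 1 there and 5 to 7 in wild-type mice. For antibiotic with DSS it was 5 to 7 in MCJ-deficient and 8 to 9 in wild-type mice with a library left out, Mertk passing without wild-type NN replicate 3 (1.67). For MCJ averaged over conditions it was 4 with DESeq2 (476 genes of all), 3 with total counts as library size (167), 3 without a filter (97) and 0 to 2 with a library left out. For the difference PP minus NN it was 1 with DESeq2, which called 156 genes of all (0 to 0 with a library left out). For PP minus NP it was 2 with DESeq2 (81 genes of all), 2 without a filter (36) and 0 to 3 with a library left out. For MCJ in NN and PP and for NP minus NN it was 0 to 0 with a library left out. Ratios to Adgre1 gave 4 calls at a pseudocount of 1 (Cx3cr1 and Mertk, for DSS and for antibiotic with DSS) and 0 to 0 with a library left out. Leaving out a library of the groups compared raises the smallest p that a comparison with NN can give, so those 0 calls say little. The cause was not tested.

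Signs turned in values not called above; of these, Csf1r for DSS in wild-type mice was called without wild-type NN replicate 2. With total counts as library size, MCJ in NN gave 0.27 for Mrc1, 0.48 for Cd68 and 0.62 for Lyz2, MCJ in PP gave 0.082 for Mertk, NP minus NN gave -0.42 for Adgre1 and -0.40 for Msr1, and PP minus NN gave -0.036 for Mrc1 and -0.032 for Cd68. With that scaling the median gene was at 0.79 for MCJ in NN, against 0.08 with TMM. Lyz2 in NN was 0.038 in 1 fit of all libraries and 0.17 with Lyz1 added, an alternative chosen after seeing the data. Mertk for antibiotic with DSS in MCJ-deficient mice was 0.004 with DESeq2 and with RLE size factors. With each library left out in turn, 23 values changed sign at least once, and their lowest and highest values were as follows. MCJ in NN gave -1.56 to 5.15 for Csf1r, -0.99 to 0.66 for Mrc1, -1.63 to 0.51 for Cd68 and -0.58 to 0.79 for Lyz2. MCJ in NP gave -0.052 to 0.30 for Mertk. MCJ in PP gave -0.53 to 0.48 for Mrc1, -0.53 to 0.14 for Mertk, -0.17 to 0.67 for Cd68, -0.044 to 1.02 for Msr1 and -1.21 to 0.61 for Itgax. DSS in wild-type mice gave -0.33 to 6.57 for Csf1r and -0.14 to 1.02 for Mertk. The antibiotic under DSS in MCJ-deficient mice gave -0.24 to 1.39 for Cx3cr1 and -0.053 to 0.67 for Mertk, and with no treatment as the base -0.59 to 0.097 for Mertk. NP minus NN gave -0.67 to 1.34 for Adgre1, -1.84 to 5.06 for Csf1r, -2.80 to 1.81 for Cx3cr1 and -0.17 to 1.10 for Msr1. PP minus NN gave -4.75 to 2.04 for Csf1r, -0.63 to 0.99 for Mrc1 and -0.18 to 1.90 for Cd68, and PP minus NP gave -0.64 to 0.004 for Mertk.

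DESeq2 called more genes of all in every comparison, such as 361 for MCJ in NP against 145. Mouse numbers 1 and 2 are shared by the groups compared for MCJ in NN and for DSS in MCJ-deficient mice, and same-numbered libraries did not deviate together from their group means (correlations over 16958 genes of -0.03 and -0.0345 for MCJ in NN, and of -0.00717 and 0.0239 for DSS). With the mouse number as a replicate block, an alternative chosen after seeing the data, 3 of the 9 genes were called for DSS in MCJ-deficient mice (Adgre1, Lyz2 and Msr1). For MCJ in NN, where a shared number joins mice of different genotype, 0 were called. There Csf1r (1.31), Mrc1 (2.73), Cd68 (0.92) and Lyz2 (0.35) changed sign. Within the other comparisons of a pair of groups, at most 1 mouse number is shared.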
